A study of Homo sapiens with 11 samples.

Results

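The genes described are 59 extracellular matrix genes of the 28395 genes counted in PC3 and DU145 prostate cancer cells. They were taken by name, as the rows of both count tables whose Entrez identifier maps to a listed symbol, and all 59 were found. By class they comprise 5 basement membrane collagens, 8 interstitial and anchoring collagens, 2 transmembrane collagens, 7 laminins, 4 basement membrane linkers, 11 adhesive and matricellular glycoproteins, 8 elastic fibre and TGF-β binding proteins, 5 proteoglycans and 9 crosslinking and hydroxylating enzymes. They were listed with earlier results of these data known, so the shares called are descriptions.

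PC3 is a human prostate cancer line derived from a bone metastasis, and DU145 one derived from a brain metastasis. RNA-Seq was carried out on both lines carrying either a Lenti-ORF control lentivirus or a lentivirus for stable overexpression (OE) of ST6GAL1, the sialyltransferase that caps N-glycans with sialic acid. The groups held 3 PC3 control, 3 PC3 OE, 3 DU145 control and 2 DU145 OE libraries, the last labelled replicates 2 and 3. All groups carried a lentivirus, and neither untransduced cells nor a replicate 1 of DU145 OE were analysed here. The methods describe stable lines selected after transduction and give no separate transduction for each replicate, so the p-values measure the spread between libraries and not between independently made lines.

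Epithelial cells rest on a basement membrane, a sheet in which networks of type IV collagen and laminin are held together by nidogens and by heparan sulphate proteoglycans such as perlecan and agrin. Beneath it lies interstitial matrix with fibrillar collagens, fibronectin and elastic fibres, and the fibrillins and latent TGF-β binding proteins of those fibres also store the growth factor TGF-β. In the prostate much of the interstitial matrix is made by fibroblasts of the stroma, and carcinoma cells make matrix of their own, which integrins and other receptors on the cell surface bind.

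Each library held between 13194485 and 18201359 counts, so that 3 counts, the level below which a gene is called at the floor here, correspond to 0.165 to 0.227 CPM, counts scaled to a common library size. Levels are given as CPM on a common scale for all 11 libraries (normalized CPM). ST6GAL1 itself lay at 2.09 to 3.07 normalized CPM in PC3 controls against 31.7 to 33.3 with OE, and at 11.4 to 14.3 in DU145 controls against 298.7 and 346.6 with OE. All 5 epithelial markers examined were above 3 counts in every group, while KLK3, a defining androgen target of luminal prostate cells, was at 0 in every library. The 3 endothelial markers summed to 6.45 to 7.45 normalized CPM in PC3 controls and 5.68 to 6.19 with OE, and to at most 1.84 in DU145. The 4 leukocyte markers summed to at most 2.85 in any library. Of 6 fibroblast markers, 3 were above 3 counts in PC3 and 1 in DU145, while DCN, LUM and COL1A2 had at most 3 counts in any library. The summed level of all 6 was 4.62 to 4.96 normalized CPM in PC3 controls and 13.1 to 17.8 with OE. In DU145 it was 0.150 to 0.661 in controls and 0.774 to 1.28 with OE. Most of the PC3 sum was COL3A1, whose values are given with the further matrix genes. The part of these markers in the results was not tested. The 2 DU145 OE libraries differed more from each other than any other replicate pair, with a chi-square per degree of freedom of 13.3 against 1.39 to 5.46 elsewhere. What this touches among the matrix genes is given beside the DU145 results.

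Taken as a whole, the 59 genes had more RNA in PC3 control cells than in DU145 control cells. The 59 genes together took 1.48% ± 0.0259 (SD, n = 3) of all counts in PC3 controls and 0.679% ± 0.0234 (SD, n = 3) in DU145 controls. The classes differed: the interstitial and anchoring collagens summed to 5065 normalized CPM in PC3 controls and 275 in DU145 controls. Proteoglycans (544 in PC3 against 751 in DU145) and crosslinking and hydroxylating enzymes (1513 against 2553) went the other way. With OE their share was 1.59% ± 0.0239 (SD, n = 3) in PC3 and 0.802% ± 0.0688 (SD, n = 2) in DU145. In bulk RNA a larger share of cells that express a gene and more RNA per cell cannot be told apart.

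The lines also differed in which matrix genes led. Per kilobase of exon, the highest level in PC3 controls was that of COL6A1, a chain of the beaded filament collagen VI, at 476.6 ± 18.2 normalized CPM per kb (SD, n = 3). COL6A2, its partner chain, followed at 361 ± 8.75. The matricellular growth factor binders CCN1 and CCN2 came next at 137 ± 4.44 and 109 ± 4.82, and all 4 levels were separated by more than their SDs. The order below them was closer, and P4HA1, a subunit of collagen prolyl hydroxylase, at 90.6 ± 2.91 could not be separated from the cell surface proteoglycan SDC1 at 89.3 ± 4.36.

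In DU145 controls the highest level was that of TGM2, the transglutaminase that crosslinks fibronectin and other matrix proteins, at 143.6 ± 1.40 normalized CPM per kb (SD, n = 3). SDC1 followed at 84.2 ± 4.52. The syndecan SDC4 at 71.4 ± 2.34 and the fibulin family glycoprotein EFEMP1 at 69.5 ± 4.62 were within their SDs of each other, as were PLOD2, a collagen lysyl hydroxylase, at 57.9 ± 1.95 and LAMC1, the laminin γ1 chain, at 57.2 ± 1.79. COL6A1 had 24.3 ± 1.98 and COL6A2 15.3 ± 1.17 in this line.

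**Figure D1:**
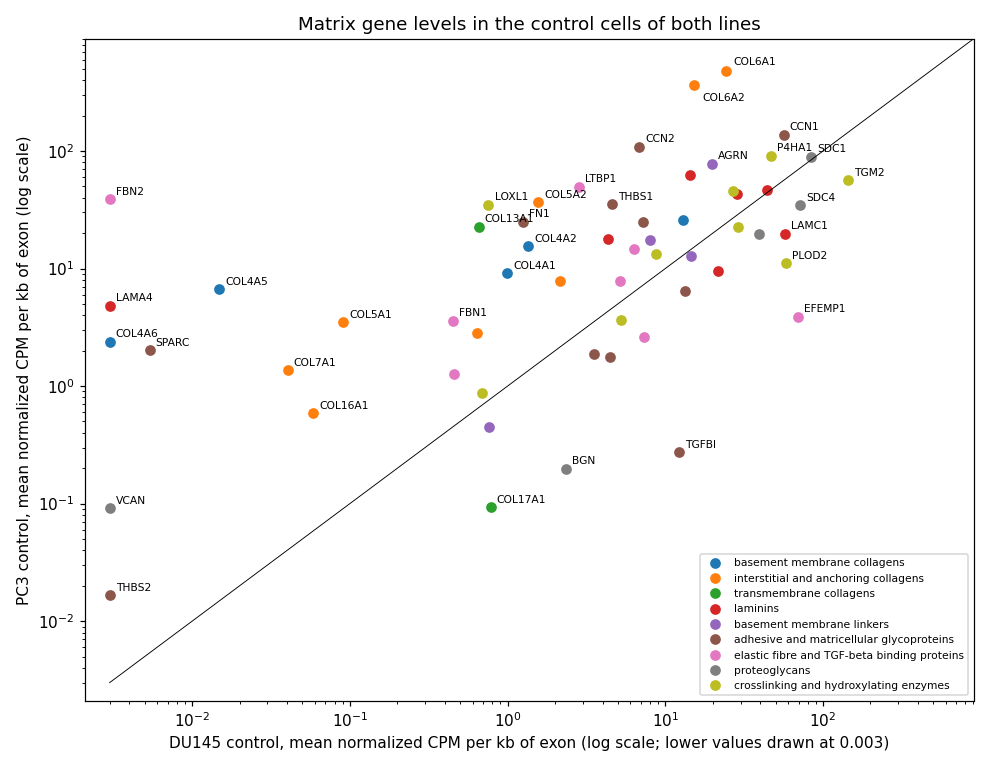
Levels of the 59 matrix genes in control cells, by class, as normalized CPM per kilobase of exon on a log axis for PC3 and for DU145, with the mean of 3 libraries. COL6A1 and COL6A2 stand highest in PC3 and TGM2 in DU145, and the collagens other than COL17A1 lie lower in DU145 than in PC3.

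The comparison of control lines asks which matrix genes each parental background expressed. A gene was called where its adjusted p was below 0.05 and its log2 difference exceeded 0.58 in either direction (edgeR quasi-likelihood test, Benjamini-Hochberg). Of 58 genes tested, 51 were called, where 64.9% of all 14952 genes tested were called. Of these, 36 were higher in PC3 and 15 higher in DU145, where 33.2% and 31.7% of all genes were. At the adjusted p alone 55 passed, where 86.3% of all genes did. The log2 difference, PC3 minus DU145, had a median of 1.25 and was above 0 for 40 of the 58, against 50.2% of all genes. All 5 basement membrane collagens and all 8 interstitial and anchoring collagens were higher in PC3, but with the trend of GC content and length removed COL18A1 turned from 1.01 to -0.15 and was not called, and the TGF-β binding protein LTBP3 turned from 1.21 to -0.055. The perlecan gene HSPG2 (0.20), the fibulin FBLN1 and the lysyl hydroxylases PLOD1 and PLOD3 kept their direction but also lost their calls. All of these lost calls had been higher in PC3. Line and any batch that goes with it cannot be told apart, since each line has its own count table.

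Several members were present in one line and at the floor in the other. FBN2, an elastic fibre fibrillin, had 676 to 706 normalized CPM in PC3 controls and a single count over the 3 DU145 controls, a ratio of 30649 with a 95% counting interval of 5501 to 1210624 (exact binomial). SPARC, a collagen-binding matricellular protein, had 458 counts over the PC3 controls and 1 over the DU145 controls, a ratio of 414 with an interval of 73.9 to 16375. The laminin chain LAMA4 lay at 54.7, 61.0 and 58.6 normalized CPM in PC3 controls and had no count in any DU145 library, so it was at least 855-fold higher in PC3.

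COL4A6 was likewise at least 324-fold and the proteoglycan VCAN at least 19.9-fold higher in PC3 controls, each bound resting on a floor of 3 counts over the DU145 control group. THBS2, a thrombospondin, had at most 3 counts in every PC3 library and none in DU145. In all, 6 members had at most 3 counts in every DU145 library, namely COL4A6, LAMA4, THBS2, SPARC, FBN2 and VCAN, and 1 did so in PC3, namely THBS2. These intervals and floors cover counting error only.

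In the other direction the largest differences were those of TGFBI and EFEMP1. TGFBI, a secreted adhesive protein induced by TGF-β, had 1.96 to 2.34 normalized CPM in PC3 controls and 91.3 to 98.3 in DU145 controls, a log2 difference of -5.49 (SE 0.0933, adjusted p = 1.59e-20). EFEMP1 had 14.9 to 16.3 in PC3 controls and 254.3 to 287 in DU145 controls, a log2 difference of -4.16 (SE 0.0736, adjusted p = 2.83e-20). Neither pair of groups overlapped. The transmembrane collagens split, with COL13A1 higher in PC3 (log2 difference 5.11, SE 0.07, adjusted p = 6.23e-22) and COL17A1, the hemidesmosome collagen, higher in DU145 (-3.05, SE 0.21, adjusted p = 3.32e-11).

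With ST6GAL1 OE in PC3, 4 matrix genes rose and 5 fell. Those that rose were FN1, SPARC, HSPG2 and LOX, and those that fell were TGFBI, NID2, TGM2, CCN1 and LAMB3. The 9 genes are 15.8% of the 57 tested, where 5.38% of all 13544 genes tested in PC3 were called, 3.61% higher and 1.76% lower. At the adjusted p alone 41 of 57 passed, 25 higher and 16 lower, where 37.3% of all genes did. The log2 difference was above 0 for 34 of the 57, against 49.7% of all genes, with a median of 0.06 over the matrix genes and -0.00 over all genes tested. THBS2 and BGN were too low to be tested, and all 57 others passed the filter on low counts. No collagen of the 59 genes was called in PC3.

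FN1 encodes fibronectin, the adhesive glycoprotein that integrins assemble into fibrils around cells. It had 421, 440.3 and 432 normalized CPM in the PC3 control replicates 1 to 3 and 810.0, 852 and 825 in the OE replicates. Every OE library stood above every control, and the log2 difference was 0.94 (SE 0.0256, adjusted p = 2.57e-29). In DU145 the same gene had 22.6, 19.5 and 22.3 in controls against 30.2 and 31.7 with OE, a log2 difference of 0.54 (SE 0.11, adjusted p = 0.00281) that did not reach the fold threshold.

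SPARC binds collagens and modulates how cells attach to them. It had 9.01, 11.1 and 7.96 normalized CPM in PC3 controls and 40.8, 49.97 and 45.7 with OE. The groups were far apart, and with a log2 difference of 2.29 (SE 0.0891, adjusted p = 2.51e-17) SPARC had the largest rise among the 59 genes in PC3. DU145 libraries held 0 or 1 count of it each.

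HSPG2 encodes perlecan, the large heparan sulphate proteoglycan of basement membranes. It rose from 301.4, 325 and 318 normalized CPM in PC3 controls to 509, 573 and 541 with OE, without overlap (log2 difference 0.78, SE 0.0369, adjusted p = 2.58e-12). LOX, the lysyl oxidase that starts crosslinks in collagen and elastin, had 5.32, 4.74 and 4.63 in controls and 7.21, 7.78 and 7.39 with OE. Its log2 difference of 0.61 (SE 0.12, adjusted p = 0.00014) lay just past the fold threshold and fell to 0.57 without control replicate 3 or OE replicate 2, where the call was lost.

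The promoters of FN1 and SPARC are shown because these genes had the 2 largest rises among the 59 genes in that line. Both are the 250 bases before the annotated start (RefSeq, GRCh38.p14), printed along the gene's own strand from 5′ to 3′, with capitals marking matches on either strand to the motifs searched. The motifs were AP-1 (TGANTCA), TEAD (GGAATG), a SMAD palindrome (GTCTAGAC), the CCAAT box (CCAAT), the TATA box (TATAAA) and the GC box (GGGCGG). FN1 lies at chr2:215436069-215436318 on the minus strand and SPARC at chr5:151686916-151687165 on the minus strand.
FN1: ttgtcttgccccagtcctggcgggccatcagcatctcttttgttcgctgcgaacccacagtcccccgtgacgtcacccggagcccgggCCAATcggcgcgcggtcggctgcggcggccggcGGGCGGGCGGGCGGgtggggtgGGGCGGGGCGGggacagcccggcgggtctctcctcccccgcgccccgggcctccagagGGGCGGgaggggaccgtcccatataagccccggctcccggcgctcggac
SPARC: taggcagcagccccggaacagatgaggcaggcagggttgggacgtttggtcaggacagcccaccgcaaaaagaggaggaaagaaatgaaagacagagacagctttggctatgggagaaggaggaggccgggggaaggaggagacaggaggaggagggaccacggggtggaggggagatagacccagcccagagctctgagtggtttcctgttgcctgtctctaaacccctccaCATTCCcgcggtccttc

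The FN1 window was 76.4% G and C and held a CCAAT box and 6 GC boxes, some overlapping each other. The SPARC window was 59.2% G and C and held neither, with a TEAD match 17 to 12 bases before the start.

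Of the 5 genes that fell in PC3, TGFBI did so from a low level, with 1.96 to 2.34 normalized CPM in controls and 0.340, 0.717 and 0.758 with OE. These are 30 to 37 counts against 5 to 13 counts a library, and the groups did not overlap (log2 difference -1.76, SE 0.29, adjusted p = 3.89e-06). NID2, a nidogen that bridges laminin and collagen IV, was also low, at 2.91, 2.66 and 2.74 in controls against 1.09, 1.27 and 1.07 with OE (log2 difference -1.26, SE 0.23, adjusted p = 1.65e-05). Its relative NID1 had a log2 difference of 0.43 (SE 0.0379, adjusted p = 1.71e-12) in the other direction. The NID1 to NID2 ratio per kb was 28.8 ± 2.03 in PC3 controls and 94.5 ± 8.82 with OE (SD, n = 3 each).

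The other 3 fell from high levels. TGM2 had 442, 454 and 449 normalized CPM in PC3 controls and 213.6, 215 and 217 with OE (log2 difference -1.06, SE 0.0269, adjusted p = 3.24e-30). CCN1, an integrin-binding immediate early protein, had 509.9, 524 and 491 in controls and 342, 307 and 303 with OE (-0.68, SE 0.0374, adjusted p = 4.04e-11). LAMB3, the β3 chain of the epithelial laminin-332, had 223.5, 212 and 219 in controls and 141, 139.8 and 131.5 with OE (-0.67, SE 0.0324, adjusted p = 1.64e-20).

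For each of these 3 genes every OE library lay below every control. LAMA3, the α3 chain that assembles with LAMB3, had a log2 difference of -0.04 (adjusted p = 0.388). The LAMB3 to LAMA3 ratio per kb was 4.91 ± 0.29 in PC3 controls and 3.18 ± 0.11 with OE (SD, n = 3 each).

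**Figure D2:**
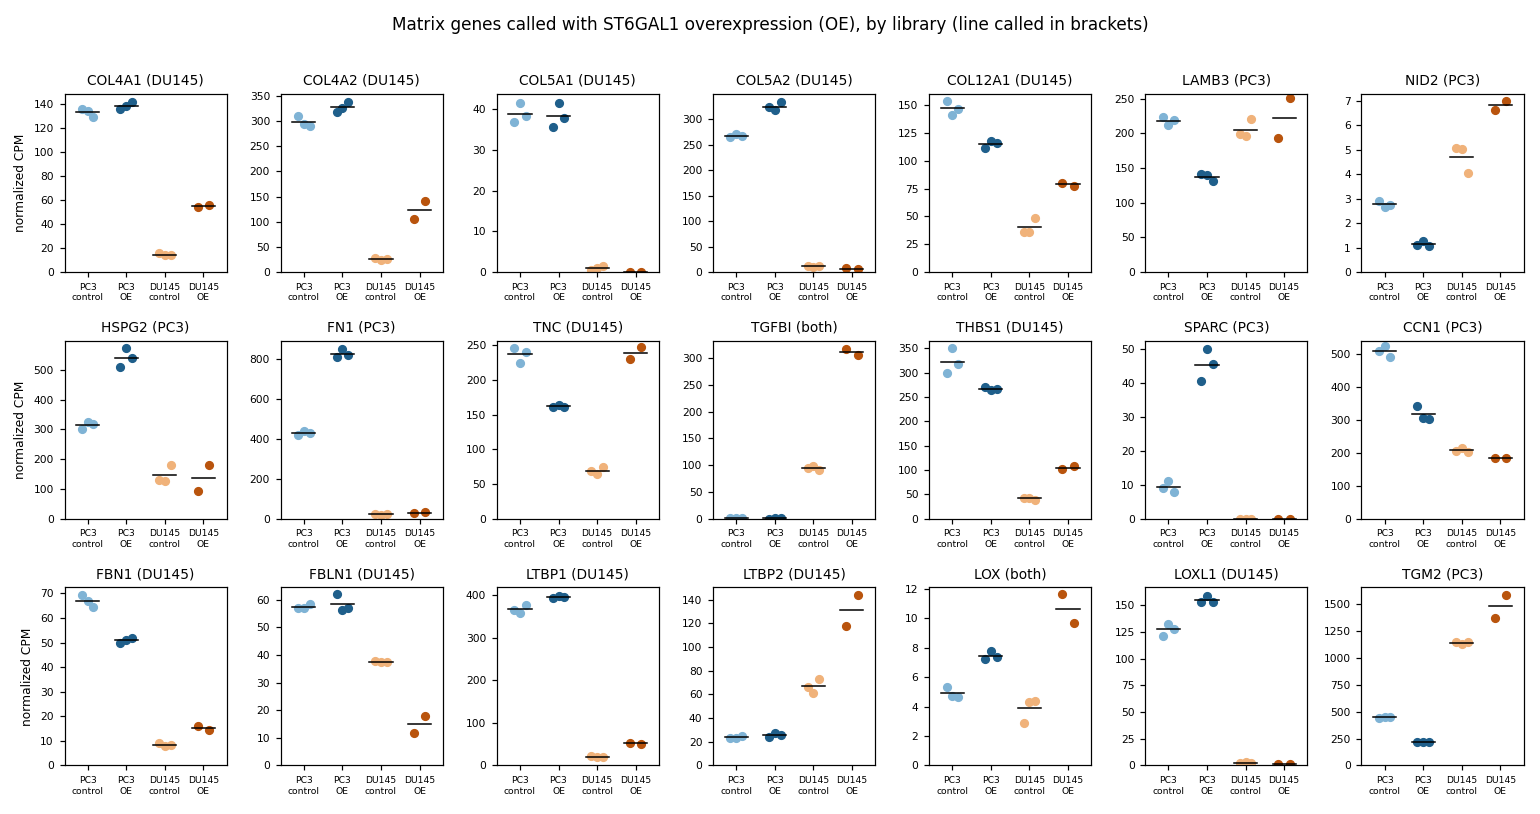
Normalized CPM of each matrix gene called in either line, one panel a gene, with a point for each library and a bar for the group mean in PC3 control, PC3 OE, DU145 control and DU145 OE. FN1 and SPARC rise in PC3, COL4A1, COL4A2, TNC and THBS1 rise in DU145, and TGFBI falls in PC3 from a level near 0 on its axis while it rises in DU145.

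The other PC3 members were not called. The median absolute log2 difference was 0.28 over the 57 matrix genes tested in PC3 and 0.12 over all genes tested. Nearest to the fold threshold on the higher side were VCAN at 0.56 (adjusted p = 0.0592), the fibulin EFEMP2 at 0.55 (adjusted p = 0.000277), LAMA4 at 0.50 and LAMB2 at 0.46, and on the lower side, beside TNC, EFEMP1 at -0.52 and COL1A1 at -0.47. Among basement membrane collagens, COL4A1 had a log2 difference of 0.06 (adjusted p = 0.192) and COL4A2 one of 0.14 (SE 0.0289, adjusted p = 0.000159), while COL18A1, the source of endostatin, had 0.35 (SE 0.0279, adjusted p = 1.52e-13). COL6A1 and COL6A2 had differences of 0.10 and 0.07. FBN2 had 0.40 (SE 0.0241, adjusted p = 1.45e-17), below the fold threshold, from a mean of 692 ± 14.98 to 916 ± 14.2 normalized CPM (SD, n = 3 each). AGRN, the proteoglycan agrin, had 0.34 (SE 0.0236, adjusted p = 2.39e-15) and LAMA5, the laminin α5 chain, 0.15 (SE 0.0255, adjusted p = 1.12e-05). TNC, the matricellular protein tenascin-C, lay just short of the threshold in the lower direction at -0.54 (SE 0.032, adjusted p = 8.69e-18), from 246.7, 225 and 240.4 to 161, 165 and 162.

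In all, 41 of the 57 genes tested (71.9%) had PC3 groups that did not overlap, 24 higher and 17 lower with OE, where 46.1% of all genes did. The precision in PC3 was high, with a biological coefficient of variation of 0.0226, against 0.0817 in DU145.

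With ST6GAL1 OE in DU145, 10 matrix genes rose and 4 fell. The 10 that rose were both chains of the main basement membrane collagen, COL4A1 and COL4A2, the fibril-associated collagen COL12A1, the adhesive glycoproteins TNC, TGFBI and THBS1, the elastic fibre and TGF-β binding proteins FBN1, LTBP1 and LTBP2, and LOX. The 4 that fell were the collagen V chains COL5A1 and COL5A2, the fibulin FBLN1 and the lysyl oxidase relative LOXL1. The 14 genes are 27.5% of the 51 tested, where 8.94% of all 13676 genes tested in DU145 were called, 4.33% higher and 4.61% lower. At the adjusted p alone 26 passed, 19 higher and 7 lower, where 20.1% of all genes did. The log2 difference was above 0 for 30 of the 51, against 49.8% of all genes, with a median of 0.15 over the matrix genes and -0.00 over all genes tested.

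COL4A1 and COL4A2 encode chains that wind into one collagen IV molecule. COL4A1 had 15.9, 13.9 and 13.9 normalized CPM in DU145 controls and 54.0 and 56.3 with OE, a log2 difference of 1.92 (SE 0.1, adjusted p = 2.77e-08). COL4A2 had 27.03, 24.0 and 26.9 in controls and 105.0 and 140.7 with OE, a log2 difference of 2.25 (SE 0.12, adjusted p = 1.91e-06). Both OE libraries stood well above all controls for both genes, though they remained below PC3 controls, where COL4A1 had 129.8 to 136.4 and COL4A2 289 to 309.

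The ratio of COL4A2 to COL4A1 per kb was 1.36 ± 0.099 in DU145 controls (SD, n = 3) and 1.48 and 1.90 in the 2 OE libraries. In PC3 it was 1.69 ± 0.0347 in controls and 1.79 ± 0.0147 with OE (SD, n = 3 each). The 2 genes lie head to head on chromosome 13, COL4A1 on the minus strand ending at 110307157 and COL4A2 on the plus strand starting at 110307284, so that 126 bases separate their annotated starts. That interval is printed with the other DU145 promoters.

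After the collagen IV pair the largest rises among the 59 genes were those of TNC, TGFBI and LOX. TNC had 69.0, 64.2 and 74.9 normalized CPM in DU145 controls and 229.9 and 247.5 with OE, a log2 difference of 1.79 (SE 0.0814, adjusted p = 6.66e-09). TGFBI had 94.2, 98.3 and 91.3 in controls and 317 and 306 with OE, a log2 difference of 1.72 (SE 0.0721, adjusted p = 2.49e-09). LOX had 2.91, 4.31 and 4.41 in controls and 11.7 and 9.66 with OE, a log2 difference of 1.46 (SE 0.19, adjusted p = 8.35e-05).

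THBS1, the thrombospondin that binds integrins and can activate latent TGF-β, had 43.6, 43.5 and 39.1 in DU145 controls and 101.2 and 108 with OE. Its log2 difference was 1.32 (SE 0.0836, adjusted p = 1.55e-07). For all 4 of these genes the OE libraries lay above every control with no overlap.

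The promoters of those of the 59 genes most raised in DU145 are shown to set their letters side by side, with the same window, build and marking as for FN1. The COL4A1 to COL4A2 interval is chr13:110307158-110307283, printed on the plus strand, TGFBI is chr5:136028738-136028987 on the plus strand and TNC is chr9:115118158-115118407 on the minus strand. THBS1 is chr15:39580829-39581078 on the plus strand and LOX is chr5:122078260-122078509 on the minus strand.
COL4A1-COL4A2 interval: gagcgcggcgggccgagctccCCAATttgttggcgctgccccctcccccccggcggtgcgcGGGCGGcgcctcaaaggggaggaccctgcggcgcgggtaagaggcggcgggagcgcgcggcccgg
TGFBI: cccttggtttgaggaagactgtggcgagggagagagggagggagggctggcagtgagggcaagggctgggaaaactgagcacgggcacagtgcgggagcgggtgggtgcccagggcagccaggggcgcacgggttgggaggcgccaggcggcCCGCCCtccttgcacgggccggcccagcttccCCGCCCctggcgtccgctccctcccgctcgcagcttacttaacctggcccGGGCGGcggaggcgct
TNC: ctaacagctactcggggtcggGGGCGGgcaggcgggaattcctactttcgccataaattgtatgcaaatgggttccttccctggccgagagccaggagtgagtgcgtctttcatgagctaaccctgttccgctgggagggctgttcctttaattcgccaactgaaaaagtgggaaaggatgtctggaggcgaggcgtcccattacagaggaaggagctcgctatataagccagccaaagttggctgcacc
THBS1: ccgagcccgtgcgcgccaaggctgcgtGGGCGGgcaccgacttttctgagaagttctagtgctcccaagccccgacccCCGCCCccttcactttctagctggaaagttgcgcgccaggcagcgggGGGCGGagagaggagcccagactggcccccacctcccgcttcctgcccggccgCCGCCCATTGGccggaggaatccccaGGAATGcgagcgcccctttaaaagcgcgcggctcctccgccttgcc
LOX: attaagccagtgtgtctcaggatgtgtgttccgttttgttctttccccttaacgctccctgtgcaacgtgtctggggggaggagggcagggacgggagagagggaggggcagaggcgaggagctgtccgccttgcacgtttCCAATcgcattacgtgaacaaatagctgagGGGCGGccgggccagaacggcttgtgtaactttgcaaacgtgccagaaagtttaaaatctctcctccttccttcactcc

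All 5 sequences held at least 1 GC box, and the interval, THBS1 and LOX also a CCAAT box. THBS1 alone among them held a TEAD match, 46 to 41 bases before its start. Over windows from 250 bases before to 50 after the start, the GC box was in 8 of the 10 genes that rose in DU145, in 76.0% of the 50 matrix genes with a promoter in the table and in 44.6% of all 27305 promoters. The CCAAT box was in 5 of the 10, in 32.0% of the matrix genes and in 35.7% of all promoters. TEAD letters were in 3 of the 10, in 16.0% and in 14.05%, and AP-1 letters in none of the 10, in 4.0% and in 7.76%. The TATA box was in none of the 10, in 16.0% of the matrix genes and in 12.0% of all, and the SMAD palindrome in none, none and 0.201%. A match is a run of letters and not a shown binding site.

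Among the elastic fibre and TGF-β binding proteins, 3 of the 7 tested in DU145 rose and 1, FBLN1, fell. LTBP1, which anchors latent TGF-β in the matrix, had 21.7, 20.3 and 20.6 normalized CPM in DU145 controls and 53.6 and 49.4 with OE (log2 difference 1.31, SE 0.0957, adjusted p = 6.1e-07). LTBP2, a fibrillin-binding relative that does not hold TGF-β, had 66.5, 61.0 and 73.0 in controls and 117.8 and 144.3 with OE (0.98, SE 0.1, adjusted p = 3.84e-05). FBN1, the main microfibril fibrillin, had 8.99, 7.74 and 8.23 in controls and 15.9 and 14.5 with OE (0.87, SE 0.13, adjusted p = 0.000383).

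COL12A1, which coats collagen fibrils, had 36.1, 36.2 and 48.5 normalized CPM in DU145 controls and 79.7 and 77.9 with OE (log2 difference 0.98, SE 0.13, adjusted p = 0.000501). Control replicate 3 stood above the other controls yet below both OE libraries. In none of these 4 genes did the groups overlap.

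Among the genes that fell, COL5A1 had 8, 17 and 19 counts in the DU145 controls and none in either OE library, so it was at least 11.1-fold lower with OE against a floor of 3 counts over the OE group (adjusted p = 0.00137). COL5A2, another collagen V chain, had 11.6, 10.2 and 12.5 normalized CPM in controls and 7.61 and 6.36 with OE (log2 difference -0.70, SE 0.15, adjusted p = 0.00504). Without OE replicate 3, which leaves 1 OE library that is assumed to vary like the controls, the COL5A2 difference was -0.57 and no longer reached the fold threshold.

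FBLN1 had 37.9, 37.4 and 37.6 in DU145 controls and 11.9 and 18.03 with OE (log2 difference -1.32, SE 0.15, adjusted p = 0.000136), without overlap. LOXL1 had 38, 47 and 37 counts in controls and 16 and 31 with OE (-0.97, SE 0.27, adjusted p = 0.0222). It kept the call in 6 of 12 alternatives of the DU145 test and lost it in the others. The antisense transcript LOXL1-AS1 had 37821 counts over all libraries against 13960 for LOXL1. The kit kept strand but the strand setting of the counting was not given in the sources used here, so reads of the pair may be mixed and the LOXL1 values are uncertain.

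The other DU145 members were not called. LAMA3, the α3 chain of laminin-332, had 320.3, 302.5 and 312 normalized CPM in controls and 459 and 468 with OE, a log2 difference of 0.58 (SE 0.0717, adjusted p = 6.64e-05) just short of the fold threshold. The median over up to 25 tested genes on each side of LAMA3 on chromosome 18 was 0.38 in DU145. Its bearing on LAMA3 was not tested, and such medians are not given for the other members. LAMC1, the γ1 chain of most laminins, had a difference of 0.32 (SE 0.0756, adjusted p = 0.00873) and LAMB1, the β1 chain, 0.47 (SE 0.074, adjusted p = 0.00044). SDC4 had 0.50 (SE 0.073, adjusted p = 0.000272) and TGM2 0.38 (SE 0.0841, adjusted p = 0.00552), from 1148, 1128 and 1147 normalized CPM to 1373 and 1585. PLOD2 had 0.24 (adjusted p = 0.0685) and SDC1 -0.01 (adjusted p = 0.938).

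In all, 33 of the 51 genes tested (64.7%) had DU145 groups that did not overlap, 23 higher and 10 lower with OE, where 48.4% of all genes did. The 8 genes too low to test in DU145 were COL4A5, COL4A6, COL7A1, LAMA4, THBS2, SPARC, FBN2 and VCAN.

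The 2 DU145 OE libraries did not give the same value for every matrix gene. For 13 of the 50 genes with counts in both, replicate 3 was above replicate 2 by 1.51- to 2.33-fold, and these were LAMA5, HSPG2, AGRN, COL18A1, COL1A1, GPC1, BGN, COL6A2, COL16A1, COL6A1, LOXL1, LTBP3 and FBLN1. Their longest transcripts had 57.0% to 67.9% G and C, with a median of 66.4%. The other 37 genes had ratios of 0.828 to 1.37 and a median of 51.5% G and C. These ratios were taken for the matrix genes alone, and the share over all genes was not computed. The count therefore does not set matrix genes apart from other genes. The part of base composition in these ratios was not tested.

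For AGRN the DU145 control replicates had 180.7, 199.6 and 255.3 normalized CPM, and the OE libraries had 109.6 and 211.4, replicate 2 below every control and replicate 3 within their range. COL6A1 had 126, 130.1 and 147 in controls and 75.3 and 133.2 with OE, and LAMA5 had 171.5, 178 and 269 against 97.9 and 228, with the same order. None of the 3 was called, with log2 differences of -0.39 (SE 0.36), -0.36 (SE 0.27) and -0.33 (SE 0.48). Without OE replicate 3, the log2 differences of AGRN, COL18A1 and COL1A1 were -0.94, -1.08 and -0.87. Those of COL6A1, COL6A2 and GPC1 were -0.82, -0.75 and -1.03. Only 1 OE library then remains, so the spread comes from the controls alone, and the OE library is assumed to vary like them.

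None of the 10 genes that rose was among these 13, while FBLN1 and LOXL1 of those that fell were. Among those that rose, the replicate 3 to replicate 2 ratio was highest for COL4A2, at 1.34 with 61.8% G and C. The ratio of TNC was 1.08, that of LTBP1 0.921, that of LTBP2 1.22 and that of LOX 0.828. With the trend of GC content and length removed, COL4A2 had a log2 difference of 2.44, TNC 1.77, TGFBI 1.69, THBS1 1.22, COL12A1 0.86 and FBLN1 -1.21, while LOXL1 had -0.57 (adjusted p = 0.0894) and lost its call.

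**Figure D3:**
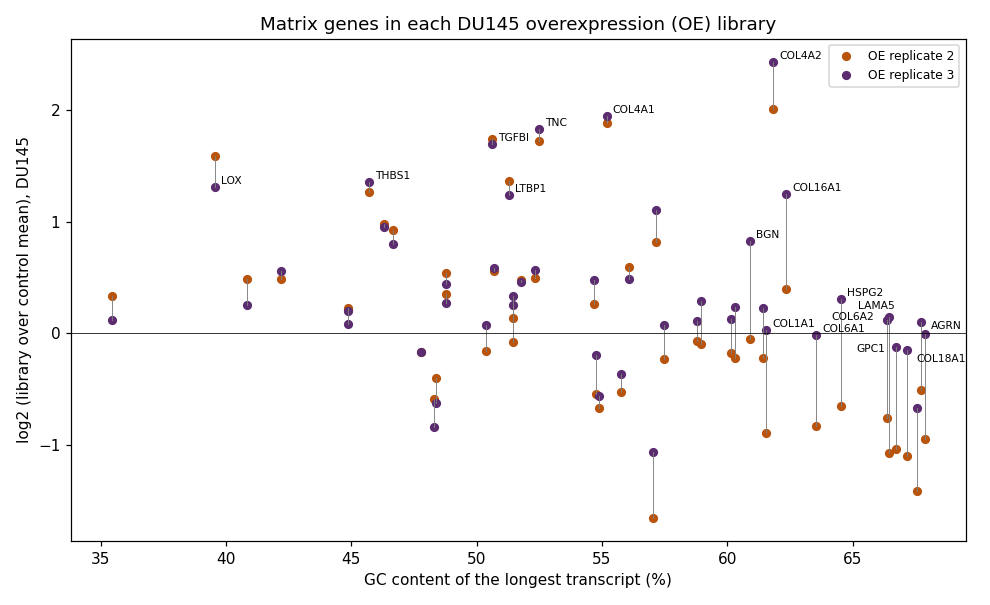
Each DU145 OE library over the mean of the 3 controls, on a log2 scale, for matrix genes counted in both, against the GC content of the longest transcript in percent, with a line joining the libraries of a gene. The libraries part mainly above 57% G and C, where replicate 2 lies below replicate 3, while TGFBI, TNC, THBS1 and LTBP1 have both libraries near each other and far above 0.

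Of the 50 matrix genes tested in both lines, 21 had log2 differences of the same sign in PC3 and DU145 and 29 of opposite sign, so that 42.0% had the same sign, where 52.8% of the 12413 genes tested in both lines did. TGFBI and LOX were called in both, LOX higher in each and TGFBI lower in PC3 and higher in DU145. At the adjusted p alone 16 passed in both lines, 6 with the same sign and 10 with opposite signs, which are 12.0% and 20% of the 50 against 5.27% and 3.54% of all genes tested in both. Of these, COL4A2, LAMC1, FN1, LTBP1 and LOX were higher and MFGE8, a milk fat globule protein that bridges cells to integrins, lower in each. COL12A1, NID2, TNC, TGFBI, THBS1, FBN1, SDC4 and TGM2 were lower in PC3 and higher in DU145, and COL5A2 and LOXL1 the reverse.

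**Figure D4:**
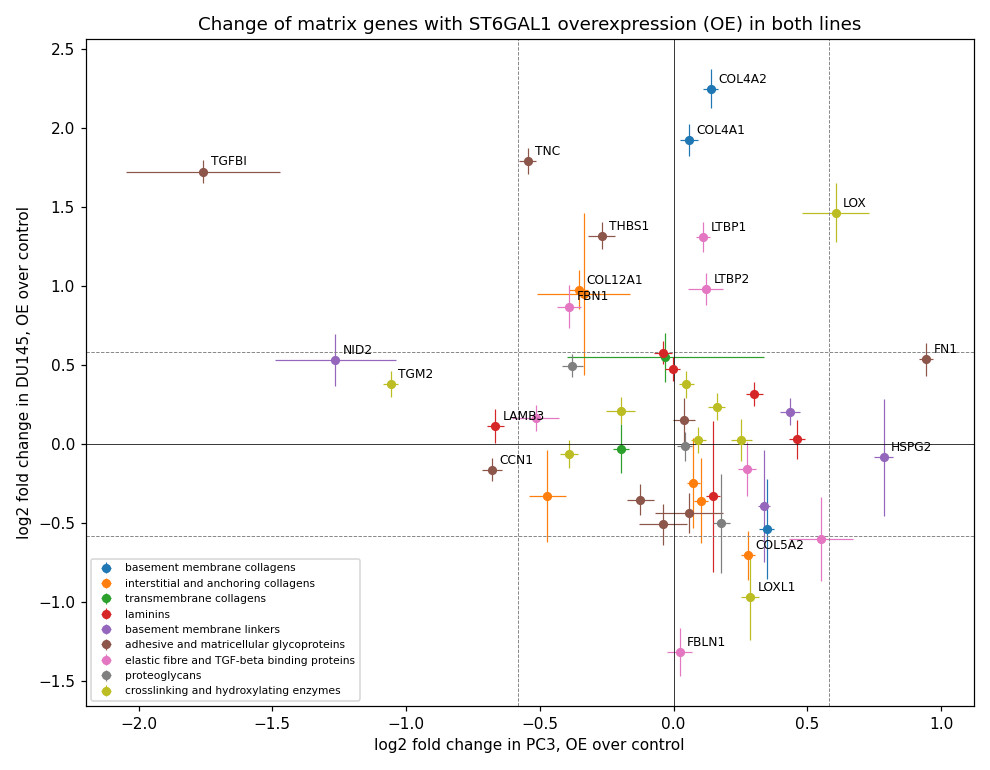
Log2 difference with OE in PC3 (x axis) and in DU145 (y axis) for matrix genes tested in both, coloured by class, with bars of 1 SE and dashed lines at the fold threshold of 0.58. COL5A1, which had no count in the DU145 OE libraries, is left out. LOX lies past the threshold in both lines, TGFBI in the upper left, and COL4A1 and COL4A2 only on the DU145 axis.

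The difference itself, DU145 minus PC3, was tested in one fit of all libraries. Of 58 genes tested, 23 were called, 17 with a higher change in DU145 and 6 with a lower one, where 8.72% of all 14952 genes were called, 3.86% higher and 4.86% lower (edgeR quasi-likelihood test, Benjamini-Hochberg). At the adjusted p alone 31 passed, where 19.7% of all genes did, and 32 of the 58 differences were above 0, against 48.3% of all genes. TGFBI had the largest positive difference, 3.48 on the log2 scale (SE 0.23, adjusted p = 2.84e-09). TNC had 2.33 (SE 0.0824, adjusted p = 5.53e-13), COL4A2 2.11 (SE 0.13, adjusted p = 1.56e-07) and COL4A1 1.86 (SE 0.0871, adjusted p = 3.58e-11). BGN, the small leucine-rich proteoglycan biglycan, had 2.34 (SE 0.72, adjusted p = 0.0285), from only 1 to 9 counts in each PC3 library. LOX, which rose in both lines, had 0.85 (SE 0.21, adjusted p = 0.00706).

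By class, 6 of 8 elastic fibre and TGF-β binding proteins were called in this test, with FBN1, LTBP1, LTBP2 and EFEMP1 higher in DU145 and FBLN1 and EFEMP2 lower. FN1 had a difference of -0.41 (SE 0.0858, adjusted p = 0.00184) and CCN1 one of 0.51 (SE 0.076, adjusted p = 6.9e-05), both short of the fold threshold. BGN and COL4A5 rested on few counts in one line, with 1 to 4 counts of COL4A5 in the DU145 controls and none with OE.

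A further 96 matrix genes outside the 59 were read from the same fits. In PC3 52 were tested, of which 4 were called higher and 2 lower, 11.5% against 5.38% of all genes, and in DU145 50 were tested, with 3 higher and 7 lower, 20% against 8.94%. The largest rise in PC3 was that of COL3A1, a fibrillar collagen, with 3.81, 3.73 and 3.98 normalized CPM in controls and 12.5, 16.9 and 15.8 with OE (log2 difference 1.98, adjusted p = 1.79e-17). COL3A1 is also in the fibroblast marker list, whose summed level was 4.62 to 4.96 in PC3 controls and 13.1 to 17.8 with OE. COL3A1 itself made up most of that sum in both groups. Of the 6 markers, 3 were above 3 counts in both groups, and DCN, LUM and COL1A2 were at 3 counts or fewer.

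COLGALT2, a collagen galactosyltransferase, and COL21A1 also rose in PC3, by 0.64 each (adjusted p = 0.00253 and 0.000812). The proteoglycan CSPG4 had 21.6, 26.3 and 20.8 normalized CPM in PC3 controls and 11.3, 13.4 and 11.3 with OE (log2 difference -0.92, adjusted p = 4.06e-11), and the glypican GPC3 had a difference of -1.56 (adjusted p = 0.000358) at 0.204 to 1.57 normalized CPM. In DU145 the basement membrane collagen COL4A3 had 10.4, 9.01 and 9.80 in controls and 17.0 and 19.4 with OE (0.91, adjusted p = 0.000196). SPOCK1, a testican, had 0.198, 0.381 and 0.374 in controls and 1.29 and 0.949 with OE (1.79, adjusted p = 0.0121), and the glypican GPC2 had 0.74 (adjusted p = 0.0494).

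The lower DU145 genes of that list included LOXL4, a lysyl oxidase relative, with 4.23, 4.44 and 4.56 in controls and 1.10 and 0.949 with OE (log2 difference -2.10, adjusted p = 2.89e-05). COL8A2 had 10.8, 11.4 and 10.7 in controls and 2.38 and 2.79 with OE (-2.07, adjusted p = 1.7e-06), and the elastic fibre fibulin FBLN5 had -1.17 (adjusted p = 0.000101). In PC3 LOXL4 had a difference of 0.56 (adjusted p = 2.67e-13), short of the threshold. COL6A3, the third chain of collagen VI, had 296 ± 6.98 normalized CPM in PC3 controls and 208.4 ± 2.11 with OE (SD, n = 3 each), a log2 difference of -0.50 (adjusted p = 2.1e-18), and at most 1 count in any DU145 library.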

How the data were processed

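RNA-Seq libraries were made by the authors with a stranded mRNA kit. They trimmed the single reads with Cutadapt, used HISAT2 for mapping to hg38 and featureCounts for gene counts. The deposited values are raw counts per Entrez gene in one table a line, and 97.7% of identifiers matched a symbol. The strand setting and annotation of the counting are not given in the sources used here.

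Members and gene lists were chosen with earlier results of these data known. Counts were tested with edgeR 4.0.16 in R 4.3.3 (quasi-likelihood, robust, TMM, filterByExpr), each line alone for OE against control and all 11 libraries together for the interaction and the control lines, with Benjamini-Hochberg adjustment over all genes tested. A call needed an adjusted p below 0.05 and a log2 difference beyond 0.58 in either direction. edgeR was the main test and limma-voom, the tool of the study, an alternative. Scripts were tested on simulated data. Normalized CPM uses one TMM scale over all libraries, and per kb values divide by the exon length of GENCODE. Coordinates and promoters are RefSeq GRCh38.p14, the same build.

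Named are the genes called in a line, the 2 of highest mean in each class, those at the floor, the 2 largest per direction between lines, and the 3 largest per direction and line of the further list. Values of other members stand beside them as class context, chosen after their values were seen. Alternatives were limma-voom 3.58.1, DESeq2 1.42.0, RLE factors, no filter, at least 10 counts in every library, the adjusted p alone, replicate blocks, each library left out and, chosen after seeing the data, removal of the GC and length trend. Same-numbered PC3 libraries did not deviate together (correlations -0.016, 0.013 and 0.045). The 2 DU145 pairs gave 0.062 and 0.237. With 2 OE libraries the deviations from their mean mirror each other, so these DU145 values cannot decide whether libraries were paired. The block is not in the tests reported and is given as an alternative.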

Additional observations from a re-analysis of the deposited data

Results flagged for a closer look

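The change with ST6GAL1 OE differed between the lines for 23 matrix genes, by a test of the difference itself in one edgeR fit of all libraries (adjusted p under 0.05 and a difference over 0.58 on the log2 scale, DU145 minus PC3), where 8.72% of all genes tested were called. Each value is that difference.

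Among genes with a higher change in DU145, the adhesive glycoproteins TGFBI, TNC and THBS1 had 3.48, 2.33 and 1.58. The collagens COL4A2, COL4A1 and COL12A1 had 2.11, 1.86 and 1.33, and the basement membrane linker NID2 had 1.79. The elastic fibre and TGF-β binding proteins FBN1, LTBP1, LTBP2 and EFEMP1 had 1.25, 1.19, 0.86 and 0.68. The enzymes TGM2 and LOX had 1.43 and 0.85, the proteoglycans BGN and SDC4 2.34 and 0.87, and the laminin chains LAMB3 and LAMA3 0.78 and 0.61. Of these, BGN lost the call when any of 4 PC3 libraries was left out, and LAMB3 did so without DU145 OE replicate 3 (0.57).

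Among genes with a lower change in DU145, COL5A2 had -0.99, EFEMP2 -1.16, LOXL1 -1.25 and FBLN1 -1.34. COL4A5 had -4.96 and COL5A1 -6.98, both with no count in the DU145 OE libraries, so that these fitted values depend on the prior count and give no size. COL4A5 lost the call without DU145 OE replicate 2.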

How the results depend on the processing

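With the adjusted p alone, 41 members were called in PC3 against 9 and 26 in DU145 against 14, since that rule asks for no fold change. The other alternatives called 8 to 10 in PC3, 13 to 19 in DU145, 19 to 31 in the interaction test and 40 to 55 between control lines. With each library left out, the counts ranged from 8 to 11 in PC3, 12 to 20 in DU145, 22 to 32 in the interaction test (23 reported) and 50 to 52 between control lines (51 reported), and the highest DU145 and interaction counts came without DU145 OE replicate 3, which leaves 1 OE library, assumed to vary like the controls. The replicate block called 9 in PC3, 19 in DU145, 28 in the interaction test and 52 between control lines, where the samples share only a number. With the GC and length trend removed, chosen after seeing the data, the counts were 9, 15, 24 and 45. Of the genes named by the rule, the direction then reversed for FBLN1 (-0.029) and SDC1 (-0.0087) in PC3. In DU145 it reversed for HSPG2 (0.16), COL6A2 (0.12) and SDC1 (0.22, adjusted p = 0.00263). None of these was called in the test reported, and members outside the rule are not listed here. Between control lines, COL18A1 (-0.15) and LTBP3 (-0.055) turned and lost their calls, and LAMB3 (-0.12) and SDC1 (-0.21), not called before, turned as well. HSPG2, FBLN1, PLOD1 and PLOD3 kept their direction there and lost their calls. With a library left out, log2 differences crossed 0 for 7 members in PC3 and 14 in DU145, none of them called. Among the genes named by the rule these were, in PC3, COL5A1 (-0.076 to 0.041), COL17A1 (-0.17 to 0.20) and FBLN1 (-0.019 to 0.049). In DU145 they were BGN (-0.039 to 0.83), COL13A1 (-0.15 to 0.062), HSPG2 (-0.64 to 0.31), SDC1 (-0.17 to 0.12), COL6A2 (-0.75 to 0.11), LAMA5 (-1.06 to 0.14) and LAMB3 (-0.081 to 0.28). LOXL1 in DU145 lost its call under DESeq2 (adjusted p = 0.106), with the trend removed (-0.57, adjusted p = 0.0894), and without any of the 3 controls or OE replicate 2, with adjusted p-values of 0.0574 to 0.123. The causes were not tested. Depth limits the members at the floor: 3 counts are 0.165 to 0.227 CPM.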
